A study of Mus musculus with 18 samples.

Results

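Slco2b1, Osbpl7, Vps18, Def8, Avil, Dnlz, Prmt2, Cxxc1, Zfp142 and 1700017B05Rik were 10 genes with far higher signals in untreated JAK2V617F+ than in untreated JAK2V617F- bone marrow progenitors. They were 10 of the 9636 genes that had a probe set with a single gene symbol in the deposited table, and each had 1 probe set there. The study had chosen them by the size of this untreated difference, among genes whose difference was reversed by a blocking antibody (BA) against TNF receptor 1 (TNFR1) or TNF receptor 2 (TNFR2). The untreated differences and the BA values of the 10 genes are therefore given as descriptions.

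The arrays came from Balb/c mice with an established myeloproliferative neoplasm (MPN), induced by GFP-tagged JAK2V617F, a constitutively active form of the kinase JAK2. In each of 3 experiments, bone marrow of 3 to 4 mice was cultured for 16 h with SCF (100 ng/mL) plus IL-3 (50 ng/mL), without a BA (untreated), with TNFR1 BA at 10 μg/mL or with TNFR2 BA at 10 μg/mL. After culture, Lin-Kit+ cells, meaning cells without markers of mature lineages and with the SCF receptor Kit, were sorted into GFP+ (JAK2V617F+) and GFP- (JAK2V617F-) fractions. This gave 6 groups of 3 arrays, 18 in all, and the study left out untreated JAK2V617F+ replicate 3 for its quality, so 17 arrays were used and the untreated JAK2V617F+ group had 2. The JAK2V617F- cells came from diseased mice, and all groups, the untreated included, were exposed to both cytokines. The values are log2 signals per probe set as the authors made them, so a difference of 1 is a doubling of the signal.

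Tumor necrosis factor (TNF) is an inflammatory cytokine that is raised in MPN and acts through both receptors. TNFR1 carries a death domain and can start apoptosis or NF-kB signaling, whereas TNFR2 lacks this domain, is found mainly on blood cells and signals toward NF-kB and survival. JAK2V617F keeps STAT transcription factors active without a bound cytokine. The 10 genes have roles in several different processes. Slco2b1 encodes an organic anion uptake transporter and Osbpl7 an oxysterol-binding protein of the lipid transfer family. Vps18 encodes a core subunit of the HOPS and CORVET complexes, which tether endosomes and lysosomes before they fuse, and Def8 a protein linked to the positioning of lysosomes. Avil encodes advillin, an actin-binding protein of the gelsolin and villin family. Dnlz encodes a zinc finger protein that keeps the mitochondrial HSP70 chaperone soluble. Prmt2 encodes a protein arginine methyltransferase, Cxxc1 the subunit that brings the SETD1 histone methyltransferase complexes to unmethylated CpG sites, and Zfp142 a zinc finger protein.

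In the RefSeq annotation of GRCm38.p6, Slco2b1 lies at chr7:99657804-99711340, Osbpl7 at chr11:97050633-97068904, Vps18 at chr2:119288742-119298453, Def8 at chr8:123442956-123467076 and Avil at chr10:127000065-127020994. Dnlz lies at chr2:26348118-26352110, Prmt2 at chr10:76207226-76237865, Zfp142 at chr1:74566331-74588133 and 1700017B05Rik at chr9:57252322-57262599. Prmt2 and Avil share a chromosome, as do Vps18 and Dnlz.

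The 250 bases before 12 annotated starts of 9 of the genes were searched on both strands for transcription factor motifs. They were those of STAT, NF-kB and AP-1, factors downstream of JAK2 or the TNF receptors, and those of GATA and ETS factors. The STAT motif TTCNNNGAA occurred in 1 of the 12 windows, before Slco2b1, and in 7.02% of all 32851 promoter windows. An NF-kB motif, written as GGG, any 5 bases, then CC, occurred in 7 of the 12 windows and in 45.8% of all windows. The 7 windows belonged to 6 of the 9 genes. The AP-1 motif TGANTCA occurred in 0 of the 12 windows (6.75% of all windows). The GATA motif AGATAA occurred in 1, before Avil (9.99%), and the ETS motif GGAAGT in 1, before Zfp142 (19.7%). The 12 windows of the 9 genes had a median GC content of 57.6%, against 52.4% over all windows. Printed below are the window of the Slco2b1 start that held the STAT match (chr7:99695810-99696059, minus strand) and that of Vps18 (chr2:119288492-119288741, plus strand). Vps18 was the gene whose untreated difference was reversed least by TNFR2 BA. Both are RefSeq sequences of GRCm38.p6, 5′ to 3′, with the motif matches in capitals, STAT and then NF-kB for Slco2b1 and NF-kB for Vps18.
Slco2b1: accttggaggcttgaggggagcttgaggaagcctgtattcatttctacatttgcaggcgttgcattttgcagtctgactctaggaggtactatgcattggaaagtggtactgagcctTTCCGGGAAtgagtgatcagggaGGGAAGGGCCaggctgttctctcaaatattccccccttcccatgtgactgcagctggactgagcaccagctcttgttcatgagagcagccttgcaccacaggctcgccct
Vps18: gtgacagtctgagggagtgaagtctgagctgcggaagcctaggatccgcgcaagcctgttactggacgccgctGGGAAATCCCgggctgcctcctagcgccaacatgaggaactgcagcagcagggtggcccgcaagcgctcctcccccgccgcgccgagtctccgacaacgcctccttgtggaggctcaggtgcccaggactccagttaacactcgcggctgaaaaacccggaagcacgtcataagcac
The STAT match of Slco2b1 began at base 118 and its NF-kB match at base 141 of the window, and the NF-kB match of Vps18 at base 74. A match is a description of these letters and was not tested as a binding site.

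The deposited signals ran from 2.22 to 15.49, and the medians of the 17 arrays lay between 7.41 and 7.75, against 6.05 for the excluded array. Many values of the 10 genes lay at the bottom of this scale. Within 0.1 of the lowest value, Slco2b1 had 12 of 17 arrays, 1700017B05Rik 9, Osbpl7 and Cxxc1 8 each and Def8 6, whereas Dnlz and Zfp142 had 0. A mean of at least 6 over the 17 arrays was reached by Dnlz alone. As to the sorted cells, the Kit signal ranged from 3.71 to 9.95 and that of the progenitor marker Cd34 from 7.12 to 12.04 over the 17 arrays, while Ptprc (CD45), which blood cells carry, was at 2.22 on all 6 BA-treated JAK2V617F+ arrays. The signal is from bulk RNA, so fewer expressing cells and less RNA per cell cannot be told apart.

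The transporter gene Slco2b1 had log2 signals of 7.48 and 9.40 in the untreated JAK2V617F+ arrays and of 2.22 in all 3 untreated JAK2V617F- arrays, a difference of 6.23. With TNFR1 BA its JAK2V617F+ signals were 2.22, 2.22 and 8.49, and with TNFR2 BA 2.62, 2.68 and 2.26. It stood at the lowest value of the table on all 9 JAK2V617F- arrays, so it exceeded that value in JAK2V617F+ cells alone. Under TNFR1 BA it was high there in replicate 3 alone. Osbpl7 had 8.59 and 5.44 in untreated JAK2V617F+ and 2.24, 2.22 and 3.34 in untreated JAK2V617F- arrays, a difference of 4.42. In BA-treated JAK2V617F+ cells it had 2.24, 3.83 and 2.22 with TNFR1 BA and 4.69, 2.24 and 2.22 with TNFR2 BA. In JAK2V617F- cells Osbpl7 had 2.24, 2.26 and 4.16 with TNFR1 BA and 5.10, 3.90 and 5.19 with TNFR2 BA. The latter 3 signals lay above those of 2 of the 3 TNFR2 BA JAK2V617F+ arrays.

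The tethering gene Vps18 had log2 signals of 7.92 and 6.11 in untreated JAK2V617F+ and 2.46, 2.50 and 2.46 in untreated JAK2V617F- arrays, a difference of 4.54. Its JAK2V617F+ signals were 2.54, 3.22 and 2.51 with TNFR1 BA, but 5.47, 5.70 and 5.25 with TNFR2 BA. In JAK2V617F- cells they were 2.28, 2.50 and 2.68 with TNFR1 BA and 4.26, 2.67 and 2.51 with TNFR2 BA. Vps18 was thus near the bottom of the scale under TNFR1 BA in both genotypes, and higher on every TNFR2 BA JAK2V617F+ array. There it stood at percentiles 30.8, 34.6 and 30.3 of the array in replicates 1, 2 and 3. The lysosomal gene Def8 had 7.49 and 6.42 in untreated JAK2V617F+ and 2.30, 2.40 and 2.33 in untreated JAK2V617F- arrays, a difference of 4.61. In BA-treated JAK2V617F+ cells it had 2.30, 4.66 and 2.42 with TNFR1 BA and 4.53, 4.08 and 2.30 with TNFR2 BA. In JAK2V617F- cells Def8 stayed at 2.22, 2.30 and 2.22 with TNFR1 BA, and had 2.45, 6.59 and 2.42 with TNFR2 BA, where replicate 2 alone was as high as an untreated JAK2V617F+ array.

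The advillin gene Avil had log2 signals of 6.97 and 8.72 in untreated JAK2V617F+ and 2.22, 2.98 and 2.34 in untreated JAK2V617F- arrays, a difference of 5.34. Its JAK2V617F+ signals were 3.60, 2.62 and 5.98 with TNFR1 BA and 2.97, 6.14 and 2.38 with TNFR2 BA, so that 1 array in each BA group, of a different replicate, stood well above the others. All 9 JAK2V617F- signals of Avil lay between 2.22 and 3.45. The chaperone partner Dnlz had 10.82 and 8.95 in untreated JAK2V617F+ and 6.19, 4.70 and 5.31 in untreated JAK2V617F- arrays, a difference of 4.48. Dnlz signals in JAK2V617F+ cells were 5.06, 5.17 and 5.31 with TNFR1 BA and 6.75, 5.32 and 6.66 with TNFR2 BA. On no array was Dnlz near the lowest value, and in JAK2V617F- cells it had 3.11, 7.79 and 5.24 with TNFR1 BA and 8.58, 7.17 and 5.81 with TNFR2 BA.

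The methyltransferase gene Prmt2 had log2 signals of 8.68 and 8.38 in untreated JAK2V617F+ and 3.02, 2.97 and 3.02 in untreated JAK2V617F- arrays, a difference of 5.53. Its JAK2V617F+ signals were 2.41, 9.79 and 8.29 with TNFR1 BA and 5.25, 2.97 and 2.22 with TNFR2 BA. Replicates 2 and 3 under TNFR1 BA were thus about as high as without a BA, and replicate 1 was not. In JAK2V617F- cells Prmt2 had 3.29, 5.17 and 4.71 with TNFR1 BA and 2.41, 2.41 and 2.36 with TNFR2 BA. Cxxc1 had 9.95 and 5.18 in untreated JAK2V617F+ and 2.31, 3.60 and 2.22 in untreated JAK2V617F- arrays, a difference of 4.86. The 2 untreated JAK2V617F+ arrays of Cxxc1 were far apart, and the difference was 2.47 without replicate 1 of that group and 7.24 without replicate 2. For Osbpl7 it was likewise 2.84 without untreated JAK2V617F+ replicate 1. The JAK2V617F+ signals of Cxxc1 were 2.22, 3.57 and 2.31 with TNFR1 BA and 6.19, 6.87 and 2.29 with TNFR2 BA.

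Zfp142 had log2 signals of 8.75 and 9.10 in untreated JAK2V617F+ and 6.54, 4.05 and 2.96 in untreated JAK2V617F- arrays, a difference of 4.41. Its JAK2V617F+ signals were 7.10, 5.58 and 4.05 with TNFR1 BA and 7.30, 8.79 and 3.11 with TNFR2 BA, and its JAK2V617F- signals 7.91, 7.14 and 4.05 with TNFR2 BA. Replicate 3 was the lowest of its group for Zfp142 in all 5 groups with 3 arrays used. 1700017B05Rik had 8.34 and 9.59 in untreated JAK2V617F+ and 4.23, 2.22 and 2.22 in untreated JAK2V617F- arrays, a difference of 6.08. In BA-treated JAK2V617F+ cells its signals were 2.22, 2.22 and 8.30 with TNFR1 BA and 4.30, 7.14 and 2.22 with TNFR2 BA, so that, as for Slco2b1, signals at the lowest value and high signals stood side by side in 1 group.

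**Figure D1:**
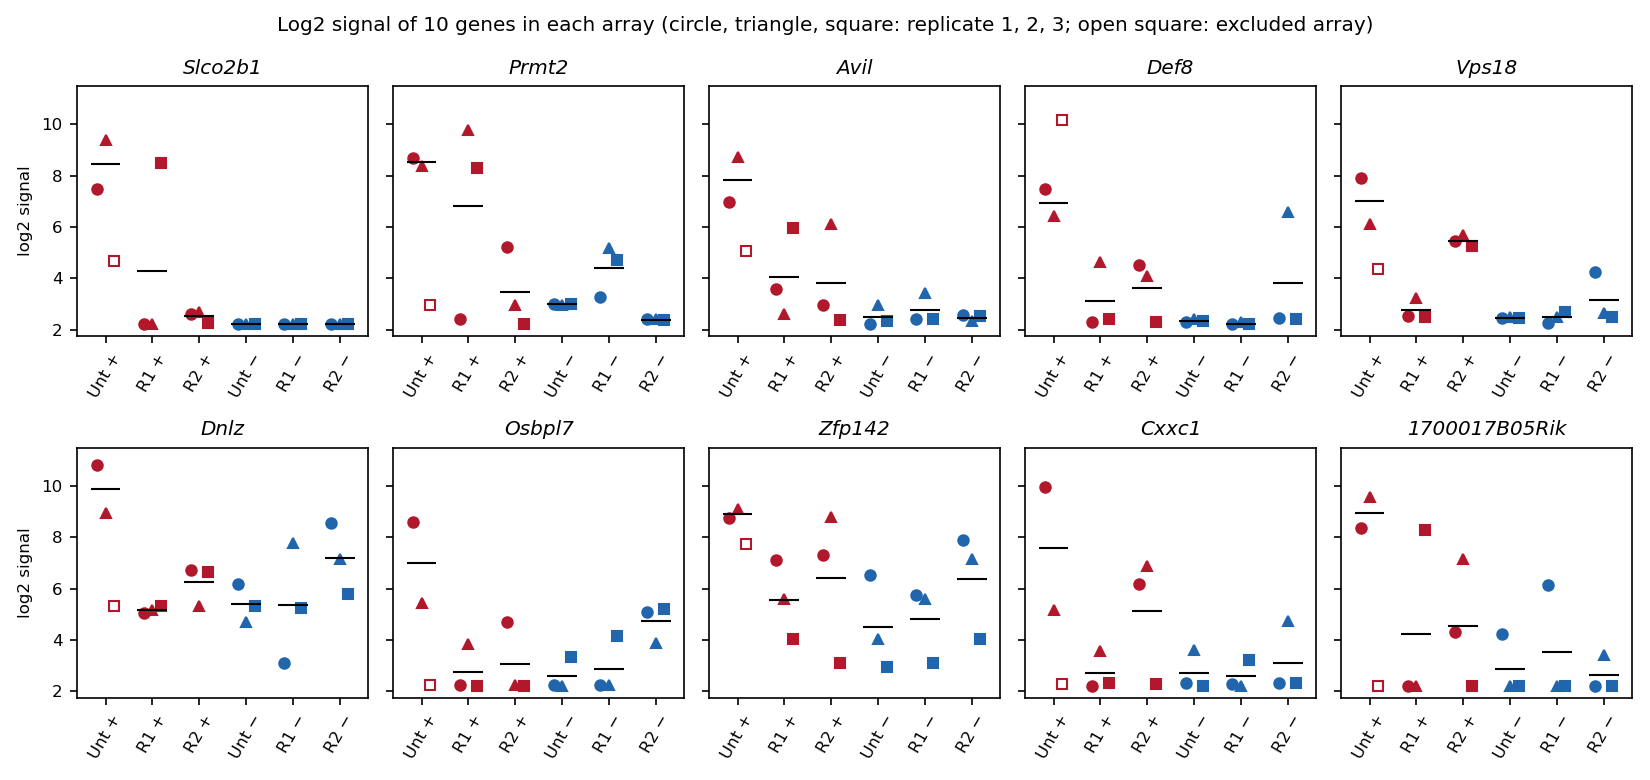
Log2 signal (vertical axis) of each of the 10 genes in each array, by culture (Unt, untreated; R1, TNFR1 BA; R2, TNFR2 BA) and genotype (red and +, JAK2V617F+; blue and −, JAK2V617F-), with the group mean of the arrays used as a line. Both filled untreated JAK2V617F+ points lie above all 3 untreated JAK2V617F- points for every gene, whereas the BA-treated JAK2V617F+ points scatter, for Prmt2 with TNFR1 BA from 2.41 to 9.79.

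Both untreated JAK2V617F+ arrays lay above all 3 untreated JAK2V617F- arrays for 10 of 10 genes. Over all 10335 probe sets 10.2% had this pattern, and the rule fixed it for these genes. The median difference of the 10 genes was 4.74, against -0.08 over all probe sets. Against the 15 arrays of the other 5 groups, which the rule used only in part, both untreated JAK2V617F+ arrays were the highest for Avil, Vps18, Dnlz, Osbpl7 and 1700017B05Rik, 5 of 10 genes, a pattern of 1.02% of all probe sets that the choice of the genes favored. For the other 5 genes at least 1 array of another group reached that range, such as TNFR1 BA JAK2V617F+ replicate 2 for Prmt2 and TNFR2 BA JAK2V617F- replicate 2 for Def8. Within replicate numbers, JAK2V617F+ exceeded JAK2V617F- cells for 10 of 10 genes in replicate 1, with a median of 5.23, and in replicate 2, with a median of 4.65.

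When the study's filters were repeated on these values, 1788 probe sets passed the first, for which limma had to give an unadjusted p under 0.05 between untreated JAK2V617F- cells and any other group. The study's description of this filter can also be read as a p between any 2 of the 6 groups, which 3316 probe sets passed, and the 10 genes then had the same ranks. The others asked for an absolute log2 difference over 1 in untreated cells, a reversal of at least 75% in BA-treated JAK2V617F+ cells, and an absolute BA difference under 1 in JAK2V617F- cells. Of the probe sets higher in JAK2V617F+ cells, 101 passed through TNFR1 BA and 86 through TNFR2 BA. In this repeat Def8, Vps18, Dnlz, Osbpl7, Zfp142, Cxxc1 and 1700017B05Rik passed through TNFR1 BA, and Slco2b1, Prmt2 and Avil through TNFR2 BA, so no gene of the 10 passed through both. Itm2a (6.48), Prdx2 (6.33) and Asb17 (6.25) ranked above them in both lists. In the TNFR1 BA list, Osbpl7 (4.42) had rank 10 and Zfp142 (4.41) rank 11, with Akap13 (5.16), which is not among the 10 genes, at rank 5, and St3gal2 (4.36) and Fam53b (4.35) next below. In the TNFR2 BA list, Avil (5.34) had rank 6 and Slc16a13 (4.51) followed it, with Gpn1 (4.32) at rank 10 and Hspa12b (4.27) next below. Passing through 1 list did not always mean a wide gap to the other. Avil kept 24.6% of its difference with TNFR2 BA and 29.2% with TNFR1 BA. 1700017B05Rik kept 22.3% with TNFR1 BA and 27.4% with TNFR2 BA, and Dnlz and Osbpl7 met the reversal limit with both BAs, at -4.93% and 3.71% with TNFR1 BA and 18.8% and 10.2% with TNFR2 BA, but not the limit in JAK2V617F- cells. By contrast, Vps18 kept 6.26% with TNFR1 BA and 66.1% with TNFR2 BA, Cxxc1 -0.23% and 49.6%, and Prmt2 69.2% and 8.57%.

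In JAK2V617F+ cells the mean signals of the 10 genes were lower with either BA than without, and for 1 BA per gene the choice had required this. With TNFR1 BA the differences from untreated JAK2V617F+ cells ran from -4.87 to -1.70, with a median of -4.19, and the arrays did not overlap for 8 of 10 genes, Slco2b1 and Prmt2 being the exceptions. Over all probe sets 7.86% were lower without overlap. With TNFR2 BA they ran from -5.92 to -1.54, with a median of -3.80, and did not overlap for 8 of 10, all but Zfp142 and Cxxc1, against 7.27% of all probe sets. Both comparisons share the 2 untreated JAK2V617F+ arrays, so they are not independent of each other or of the rule.

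The BA groups themselves share no array, but each entered the choice of some genes, so their comparison is also a description. All 7 genes that had passed through TNFR1 BA were higher with TNFR2 BA, and the 3 that had passed through TNFR2 BA were lower. The filters favored these directions. In JAK2V617F+ cells, TNFR2 BA exceeded TNFR1 BA by 2.72 for Vps18, and by 2.93, 2.47 and 2.74 within replicates 1, 2 and 3. Dnlz was higher by 1.06, and these were the 2 of 10 genes whose arrays did not overlap, where 3.26% of all probe sets were higher without overlap. The choice of both genes favored this direction. Cxxc1 was higher by 2.42, with 3.98, 3.31 and -0.02 within the replicates. Prmt2 differed by -3.35 and Slco2b1 by -1.79, both with overlapping arrays. The median over the 10 genes was 0.41, and it was -0.20 without replicate 1 and 1.18 without replicate 3, so its sign depended on single replicates. It also depends on how many of the 10 genes had passed through each BA.

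Whether JAK2V617F+ cells still exceeded JAK2V617F- cells under a BA was read most directly for Slco2b1, Prmt2 and Avil under TNFR1 BA and for the other 7 genes under TNFR2 BA, the BA through which the gene had not passed in the repeat. These 10 values are not independent of the choice, since each gene also failed the filters of that BA and the first filter could draw on every group. They are given with intervals from limma, as descriptions. In limma fitted to all probe sets with Benjamini-Hochberg adjustment, an adjusted p under 0.05 was reached by 0 of 3 genes under TNFR1 BA, where 0.0871% of all probe sets had one in either direction, and by 0 of 7 under TNFR2 BA (0.0387%). At an unadjusted p under 0.05 the counts were 0 of 3 (6.21% of all) and 1 of 7 (5.63%), so these counts set neither group of genes apart.

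Under TNFR1 BA, the log2 difference between the genotypes was 2.09 for Slco2b1 (95% confidence interval -0.52 to 4.71). It rested on TNFR1 BA JAK2V617F+ replicate 3, without which it was 0.00. Prmt2 differed by 2.44 (-0.65 to 5.53), by 4.65 without TNFR1 BA JAK2V617F+ replicate 1 and by 0.96 without replicate 2 of that group. Avil differed by 1.30 (-0.98 to 3.59), and by 0.35 without TNFR1 BA JAK2V617F+ replicate 3. The intervals thus reach from no difference to values near the untreated ones for Prmt2, whose untreated difference was 5.53, and the arrays of the genotypes overlapped for all 3. For the 7 genes that had passed through TNFR1 BA the values ran from -0.20 for Dnlz to 0.88 for Def8. Over the 10 genes the median was 0.74 and 0 of 10 were higher without overlap, against 6.43% of all probe sets.

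Under TNFR2 BA, Vps18 was higher in JAK2V617F+ cells by 2.32 on the log2 scale, with a standard error of 0.84. The 95% confidence interval was 0.56 to 4.09 before any adjustment for the number of probe sets. Vps18 had failed the TNFR2 BA filters by keeping 66.1% of its untreated difference, so this sorting of the genes favored a high value here. The signals of 5.47, 5.70 and 5.25 lay above all 3 JAK2V617F- signals, and the difference within replicates 1, 2 and 3 was 1.20, 3.03 and 2.74. Leaving out any array or replicate number of this comparison gave 1.97 to 2.88. Slco2b1, which had passed the filters through TNFR2 BA, also lay above without overlap, but by only 0.31 and near the lowest value of the table. These were 2 of 10 genes, where 5.05% of all probe sets were higher without overlap.

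The other 6 values under TNFR2 BA went both ways. Cxxc1 differed by 2.0 (-0.76 to 4.75) and 1700017B05Rik by 1.93 (-1.47 to 5.34). Without TNFR2 BA JAK2V617F+ replicate 2 these were 1.12 and 0.64, and without replicate 3 of that group 3.42 and 3.10. Zfp142 differed by 0.03 (-3.27 to 3.33) and Def8 by -0.18 (-2.49 to 2.12), and Def8 by 1.20 without TNFR2 BA JAK2V617F- replicate 2, its one high JAK2V617F- array. Dnlz and Osbpl7 were lower in JAK2V617F+ cells, by -0.94 (-3.58 to 1.70) and -1.68 (-3.89 to 0.54). The median over the 10 genes was 0.70. It was 0.21 without TNFR2 BA JAK2V617F+ replicate 2, and 1.70 without replicate 3 of that group, where 9 of the 10 genes had the lowest signal of the group.

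**Figure D2:**
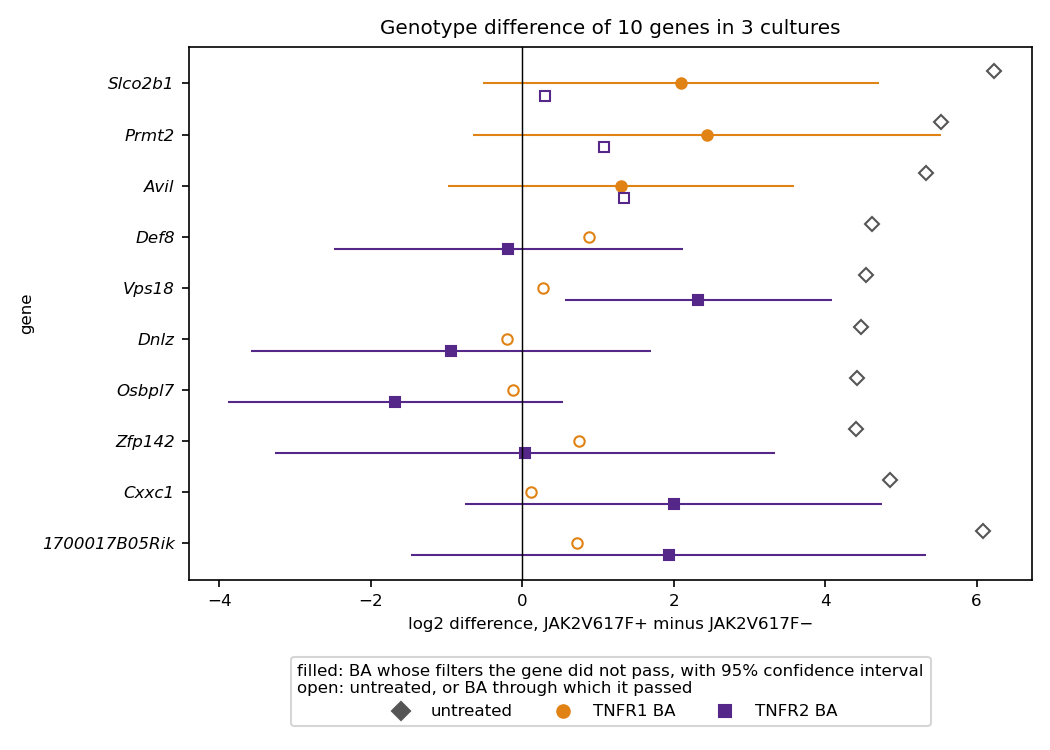
Log2 difference between JAK2V617F+ and JAK2V617F- cells (horizontal axis) of the 10 genes (vertical axis) in untreated, TNFR1 BA and TNFR2 BA cultures, with 95% confidence intervals from limma for the BA whose filters the gene did not pass (filled) and none for the untreated cultures and the BA through which it passed (open). The untreated values lie between 4.41 and 6.23, and of the 10 intervals that of Vps18 under TNFR2 BA, 0.56 to 4.09, does not cross 0. The intervals are unadjusted and describe values that are not independent of the choice of the genes. Vps18 had failed the TNFR2 BA filters by keeping 66.1% of its untreated difference.

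In JAK2V617F- cells the BA values share the 3 untreated JAK2V617F- arrays, whose low signals had entered the choice of the genes, and are given without a test. With TNFR1 BA the median difference from untreated JAK2V617F- cells was 0.13, and Prmt2, with 1.39, was the 1 gene that lay higher without overlap (3.26% of all probe sets). With TNFR2 BA the median was 0.54. Osbpl7 (2.13), Def8 (1.48) and Vps18 (0.68) lay higher without overlap, 3 of 10 where 3.76% of all probe sets did, and Prmt2 (-0.61) lay lower, 1 of 10 where 4.03% did. For Def8 the lowest TNFR2 BA array (2.418) and the highest untreated one (2.402) lay close together, as for Vps18 (2.508 and 2.502). Both gaps lay near the bottom of the scale. The differences of these genes rested on 1 array each, replicate 2 for Def8 (6.59) and replicate 1 for Vps18 (4.26). Zfp142 differed by 1.85 and Dnlz by 1.78 with overlapping arrays. Osbpl7, Def8, Zfp142 and Dnlz had passed through TNFR1 BA, whose filter asked for a small effect of TNFR1 BA alone in these cells. The median over the 10 genes was 0.06 without TNFR2 BA JAK2V617F- replicate 2.

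The excluded array, untreated JAK2V617F+ replicate 3, had no part in the choice of the genes. The untreated JAK2V617F- arrays with which it is compared had entered that choice, so the comparison is not independent of it. Its signals were 10.16 for Def8, 7.73 for Zfp142, 5.05 for Avil, 4.66 for Slco2b1 and 4.37 for Vps18, each above all 3 untreated JAK2V617F- arrays. They were 5.31 for Dnlz, 2.97 for Prmt2, 2.30 for Cxxc1, 2.24 for Osbpl7 and 2.22 for 1700017B05Rik, within the range of those arrays. Thus 5 of 10 genes lay above, where 26.4% of all probe sets did, and Def8 alone reached the signals of the 2 untreated JAK2V617F+ arrays used. Of the 54 other probe sets with an untreated difference of at least 4.41 and arrays that did not overlap, 26, or 48.1%, lay above in the excluded array. The median difference of the excluded array from the mean of the untreated JAK2V617F- arrays was 0.93 for the 10 genes and -0.66 for all probe sets.

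These differences depend on the scale of the excluded array, whose median was lower than those of the other arrays. After each array was shifted to the same median, the 10 differences were all positive, from 0.91 for 1700017B05Rik to 9.40 for Def8, with a median of 2.51. After quantile normalization the median was 2.93, Prmt2 (1.50) and Dnlz (1.91) became positive, and Osbpl7 (-0.21), Cxxc1 (-0.09) and 1700017B05Rik (-0.53) did not. A signal at the lowest value is moved up by such a shift without holding more information. With all 18 arrays the median untreated difference of the 10 genes was 3.75, and Slco2b1, Prmt2, Def8, Vps18 and Osbpl7, 5 of 10, passed the filters. How many of all probe sets passed with 18 arrays was not counted, so the 5 of 10 cannot be set against a share.

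**Figure D3:**
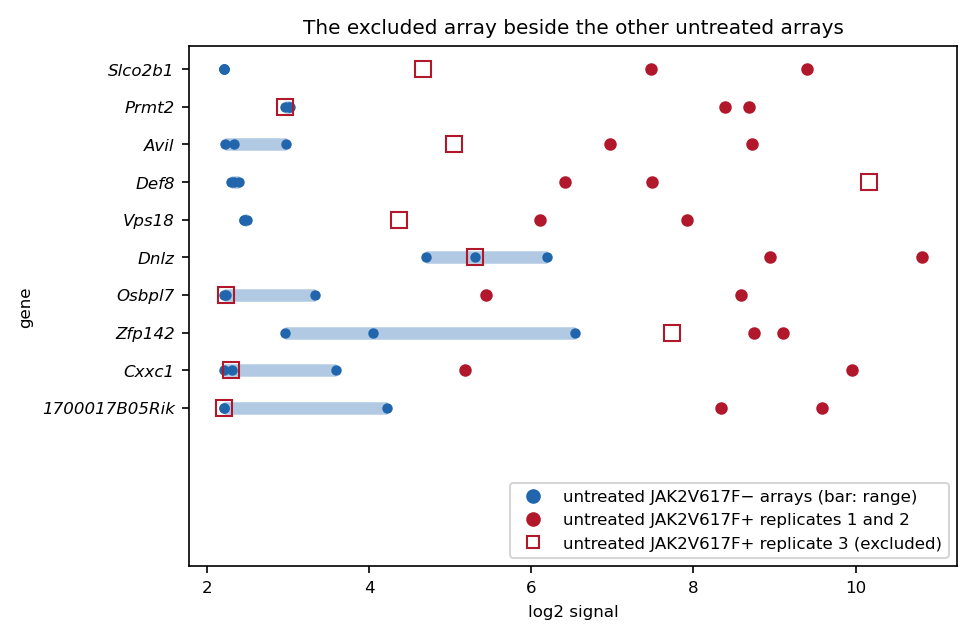
Log2 signal (horizontal axis) of the 10 genes (vertical axis) in the 3 untreated JAK2V617F- arrays (blue, range as a bar), the 2 untreated JAK2V617F+ arrays used (red) and the excluded untreated JAK2V617F+ array (open square). The open square lies to the right of the blue range for Slco2b1, Avil, Def8, Vps18 and Zfp142, and for Def8 alone, at 10.16, beyond both red points.

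Read by array rather than by gene, the mean log2 signal of the 10 genes was 8.50 and 7.73 in the untreated JAK2V617F+ arrays used and 4.70 in the excluded one. It was 3.19, 4.29 and 4.99 with TNFR1 BA and 5.01, 5.19 and 3.09 with TNFR2 BA in JAK2V617F+ cells. The 9 JAK2V617F- arrays had 2.84 to 4.26. The BA-treated JAK2V617F+ arrays thus ran from within the JAK2V617F- range to just above the excluded array, with replicate 3 the highest under TNFR1 BA and the lowest under TNFR2 BA. The SD of this mean within groups was 0.711. Counted by gene, 9, 7 and 3 of the 10 genes in the TNFR2 BA JAK2V617F+ arrays of replicates 1, 2 and 3 lay above the highest untreated JAK2V617F- array, where 29.6%, 25.8% and 27.6% of all probe sets did. In the TNFR1 BA arrays 3, 5 and 6 did, against 25.8%, 28.0% and 28.4%, so 3 of 10 was near the share of all probe sets. Some of these excesses were small and lay at the bottom of the scale. More than 1 above that array were 5, 6 and 1 genes with TNFR2 BA, against 13.3%, 10.3% and 11.7% of all probe sets. With TNFR1 BA they were 0, 2 and 4 genes, against 11.1%, 10.3% and 10.6%.

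Markers of other cells differed with the genotype. Of 8 measured mast cell and basophil genes, of 9 listed, 2, 3 and 2 were higher in JAK2V617F+ cells at an adjusted p under 0.05 from limma in untreated, TNFR1 BA and TNFR2 BA cultures. The share of all probe sets higher at that threshold was 0.0581%, 0.0774% and 0.0387%. The mean log2 signal of these 8 was 11.76 to 12.05 in untreated JAK2V617F+ arrays, 11.32 to 12.52 with TNFR1 BA and 11.48 to 12.47 with TNFR2 BA. In JAK2V617F- arrays it was 7.12 to 8.75 untreated, 6.52 to 8.14 with TNFR1 BA and 7.33 to 8.39 with TNFR2 BA. The excluded array had 11.18, close to the other JAK2V617F+ arrays. Its mean of the 10 genes, 4.70, was below those of the 2 untreated JAK2V617F+ arrays used. The 10 genes had been chosen on those 2 arrays, and the median signal of the excluded array, 6.05, was also lower. The 2 means are therefore not comparable evidence. Of 9 measured erythroid genes, of 13 listed, 0 passed in any of the 3 cultures. At an unadjusted p under 0.05 from limma, 3, 6 and 4 were higher in untreated, TNFR1 BA and TNFR2 BA cultures, against 2.85%, 3.86% and 2.77% of all probe sets. Their mean was 8.86 to 11.40 in JAK2V617F+ and 6.40 to 8.97 in JAK2V617F- arrays, ranges that overlap. Neutrophil genes, some of which myeloid progenitors also express, had means of 10.15 to 13.93 over the 17 arrays, although the cells had been sorted as Lin-. The part of these markers in the untreated difference of the 10 genes was not tested.

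**Figure D4:**
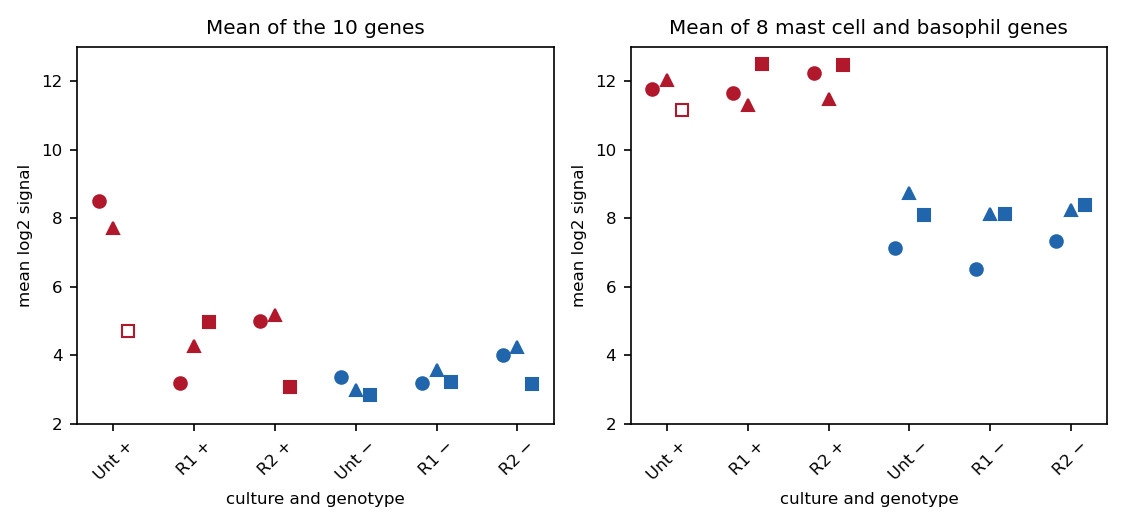
Mean log2 signal (vertical axes) of the 10 genes (left) and of 8 mast cell and basophil genes (right) in each array, by culture and genotype (Unt, R1, R2: untreated, TNFR1 BA, TNFR2 BA; red and +, JAK2V617F+; blue and −, JAK2V617F-; circle, triangle, square: replicates 1, 2, 3; open square: the excluded array). On the left the 2 untreated JAK2V617F+ arrays used, at 8.50 and 7.73, stand above all others, and on the right all JAK2V617F+ arrays, the excluded one at 11.18 included, stand above all JAK2V617F- arrays. The 10 genes had been chosen on the 2 untreated JAK2V617F+ arrays used, which favors the pattern on the left.

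Across the 17 arrays the 45 pairs of the 10 genes correlated with a median Pearson's r of 0.55 (0.21 to 0.88), which the choice of the genes brings with it through the 2 untreated JAK2V617F+ arrays. Over the 15 other arrays the median was 0.18, from -0.40 to 0.73. Many signals of the 10 genes on these arrays lay at the bottom of the scale, where they carry no order. Pairs of other probe sets were not compared, so how much the genes share outside the untreated JAK2V617F+ group was not tested. The genes whose profile over the 17 arrays was most like the mean of the 10 were Trmu (r = 0.85), which encodes a mitochondrial tRNA-modifying enzyme, Bud23 (0.84), which encodes a ribosomal RNA methyltransferase, and Itm2a (0.84), which encodes a membrane protein, followed by Fam110a (0.83) and the sterol reductase gene Tm7sf2 (0.83). Itm2a had passed the same filters. The arrays share experiments, and these values are descriptions.

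Genes of the same families and complexes were compared in the same way. Without the 10 genes, 65 measured genes of 8 related lists were compared between untreated JAK2V617F+ and JAK2V617F- cells, and 0 passed an adjusted p of 0.05 from limma in either direction, where 0.0774% of all probe sets, and 0 of the 10 genes themselves, did. At that share a count of 0 says little about these lists. At an unadjusted p under 0.05 there were 1 higher, the histone methyltransferase gene Kmt2b, and 2 lower, Svil and Wdr5, against 7.32% of all probe sets in either direction. For Vps18, the list of HOPS and CORVET genes also named Vipas39 and Vps33b, a relative of the HOPS subunit gene Vps33a. The 9 other measured genes of this list had a median difference of -0.43, and Vps33b had the largest absolute difference with 1.77 (adjusted p = 0.713 from limma). For Prmt2, the list of protein arginine methyltransferases also named Wdr77 and Clns1a, which are not methyltransferases. The 9 other measured genes of this list had a median of 0.54, with 1.48 for Carm1 (adjusted p = 0.783 from limma), which encodes a coactivator methyltransferase. For Cxxc1, the 16 other genes of the SET1 and MLL complexes had a median of -0.48, with -2.80 for the core subunit gene Rbbp5 (adjusted p = 0.713 from limma), -2.73 for Wdr5 (adjusted p = 0.617 from limma) and 2.72 for Kmt2b (adjusted p = 0.607 from limma).

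For Dnlz, the list of the mitochondrial HSP70 system also named the chaperonin genes Hspd1 and Hspe1. The 11 other measured genes of this list had a median of -0.42, with 1.69 for Timm44, the subunit that docks HSP70 at the inner membrane import channel. For Osbpl7, 8 other oxysterol-binding protein genes had a median of -0.46, with 2.24 for Osbpl3. For Def8, 4 other genes of lysosome positioning and the Rubicon family had a median of 0.55, with 2.81 for Plekhm3. For Slco2b1, 3 other measured transporters of its family, of 15 listed with it, had a median of -1.05, with -1.33 for Slco4c1. For Avil, 5 other gelsolin and villin family genes had a median of 1.06, although the largest absolute difference was that of Svil, which encodes supervillin, with -4.57 (adjusted p = 0.515 from limma). Against the median of -0.08 over all probe sets, the medians of these lists lay on both sides.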

How the data were processed

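Gene expression was measured on Affymetrix Mouse Expression arrays in Lin-Kit+ GFP+ and GFP- cells. The values are log2 signals of probe sets, computed by the authors in the Affymetrix Expression Console software (study's methods and submitters' processing notes). How they were normalized, and how the probe sets of the deposited table were chosen, was not given in the sources used. They were analysed as deposited, and shares of all probe sets refer to this table. They carry no detection call, and the number of arrays limits the precision. The table held 10335 probe sets on 18 arrays. In a platform table, 9651 probe sets had 1 gene symbol, 27 had several and 657 had no symbol.

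The 10 genes and the related and marker lists were chosen with earlier results of these data known. Named besides the 10 were the genes ranked around them in the filters, the gene of largest absolute untreated difference per related list where none passed, the 5 genes most correlated with the mean of the 10, and markers of the sorted cells. Wdr5, Kmt2b and Akap13 were added after their values were seen.

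Means of the 6 groups over 17 arrays were compared with limma 3.58.1 (R 4.3.3), using a variance trend, and p-values were adjusted by Benjamini-Hochberg over all probe sets, at a threshold of 0.05. The methods were tested on simulated data. Promoter motifs and summaries used Python 3.11.15, with RefSeq windows whose strand was checked on 1627 overlapping windows of opposite strands. Replicate numbers were taken as the 3 experiments, which the sample titles do not state. Deviations from the group means correlated by 0.008, 0.071 and 0.144 on average within numbers 1, 2 and 3 and by -0.033 between numbers. Alternatives were all 18 arrays, a replicate block, only the groups compared, quantile normalization, a shift to the same median, array weights, no variance trend, removal of dim probe sets (mean under 6), the methods' paired t-test and leaving out arrays. Genotype differences under a BA and BA effects in JAK2V617F- cells were planned as tests for some genes, but are given as descriptions, since they share groups with the choice of the genes.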

Additional observations from a re-analysis of the deposited data

Results flagged for a closer look

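Untreated JAK2V617F+ replicate 3, which the study left out for its quality, held signals above all 3 untreated JAK2V617F- arrays for 5 of the 10 genes, a signal in an array that the comparisons did not use. They were 4.66 for the transporter gene Slco2b1, 5.05 for the advillin gene Avil, 10.16 for the lysosomal gene Def8, 4.37 for the tethering gene Vps18 and 7.73 for the zinc finger gene Zfp142. Over all probe sets 26.4% lay above those arrays in this array, and of 54 other probe sets with an untreated difference at least as large and arrays that did not overlap, 48.1% did, close to the share of the 10 genes. The JAK2V617F- arrays had entered the choice of the genes.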

How the results depend on the processing

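In 171 alternative fits of the 10 genotype differences given with intervals, 0 passed the adjusted threshold in limma, in the fit with a replicate block or in the methods' paired t-test, and the lowest adjusted p was 0.367, for Vps18 under TNFR2 BA with variances without a trend. In the main fit, 0.0871% of all probe sets passed under TNFR1 BA and 0.0387% under TNFR2 BA. With all 18 arrays, the median over the 10 genes was 3.75 for the untreated genotype difference, -2.91 for TNFR1 BA and -2.27 for TNFR2 BA in JAK2V617F+ cells. With these arrays 5 genes passed the filters, and the probe sets that passed over the whole table were not counted. All 10 passed with a first filter between any pair of groups, which 3316 probe sets passed against 1788. The median of the excluded array against untreated JAK2V617F- arrays was 2.93 after quantile normalization and 2.51 after a shift to the same median. With array weights the Def8 difference under TNFR2 BA was 0.18.

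When arrays or replicate numbers were left out, the median over the 10 genes ranged from 4.33 to 5.43 for the untreated genotype difference, from 0.33 to 1.05 under TNFR1 BA and from 0.21 to 1.70 under TNFR2 BA. The BA medians ranged from -4.40 to -3.44 (TNFR1) and -4.63 to -2.74 (TNFR2) in JAK2V617F+ cells, and from 0.00 to 0.19 and 0.06 to 0.91 in JAK2V617F- cells. TNFR2 BA minus TNFR1 BA ranged from -0.20 to 1.18, and the excluded array from 0.95 to 1.10. Under TNFR2 BA, the genotype difference of Def8 ranged from -1.32 to 1.20 and that of Zfp142 from -1.16 to 1.68, both changing sign. The cause of these changes was not tested.

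In the fit with a replicate block, which pairs the arrays of a replicate number, 0 of the 10 genes passed in any comparison. Few of the 10335 probe sets did. Between the genotypes, 7 were higher and 2 lower in untreated cultures. Under TNFR1 BA the counts were 11 and 2, and under TNFR2 BA 6 and 0. Beside such counts, 0 of 10 says little about these genes. The medians over the 10 genes were 4.50, 0.74 and 0.70 for the genotype difference in untreated, TNFR1 BA and TNFR2 BA cultures. In the methods' paired t-test, run on values that the choice of the genes had used and so a description, 2 of the 10 genes had a p under 0.05 in untreated cells (2 pairs, 4.31% of all probe sets), 0 under TNFR1 BA (4.72%) and 0 under TNFR2 BA (4.24%), and 0 after Benjamini-Hochberg. The filter on dim probe sets left Dnlz alone, so no medians were computed with it. Values at the bottom of the scale carry no order, and differences from them may be understated.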
